A study of Mus musculus with 18 samples.

Results

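The genes described here are 10 members of the MHC class I antigen processing pathway and the immunoproteasome, out of 19752 genes on the array that have a probe set of their own: H2-Q4, B2m, Tap1, Tap2, Tapbp, Erap1, Psmb8, Psmb9, Psmb10 and Nlrc5. Each was read from a probe set annotated to that gene alone, and for Nlrc5, which has 19 such probe sets, from the one with the highest mean. The RNA was that of regulatory T cells (Tregs), the Foxp3-expressing CD4+ T cells that hold other T cells in check, taken from diabetes-prone NOD mice. The 18 samples, 6 groups of 3, were each hybridised to an Affymetrix Mouse Gene 1.0 ST array. The spleen mice were labelled as females aged 60 days, and 1 spleen array departs from that label, as described below. They carried the Foxp3-eGFP-Cre-ERT2 and Rosa26-YFP alleles, in which a cell that expresses Foxp3 during tamoxifen exposure turns YFP+ for good, together with its descendants. The recombinase is driven by Foxp3, so the tag marks only cells that were already Tregs at that time.

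Perinate-tagged cells are the GFP+YFP+ Tregs of mice given 4 tamoxifen injections between days 0 and 10. Adult-tagged cells are the same population after 4 injections between days 35 and 45. The GFP+YFP- cells of either treatment are the untagged bulk, so all 4 spleen groups carry the reporter alleles and tamoxifen. Thymic Tregs were GFP+ cells of males, from perinates aged 4 days or adults aged 5 weeks. Spleen cells went through a FACSAria and thymus cells through a MoFlo sorter, so that tissue, sex, age and sorter cannot be told apart between spleen and thymus. Whether a replicate is 1 animal or a pool is not in the labels, and p-values therefore measure the spread between these samples only. Levels are log2 intensities of RMA-processed probe sets, differences are log2 with a standard error (SE), and n = 3 arrays per group unless stated.

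Nearly all nucleated cells show fragments of their own proteins on MHC class I molecules, which CD8+ T cells and natural killer cells read. The proteasome cuts the proteins, the TAP transporter carries the peptides into the endoplasmic reticulum, an aminopeptidase trims them, and chaperones load them onto a heavy chain paired with beta-2 microglobulin. In cells exposed to interferon, and in many leukocytes at rest, the catalytic subunits of the proteasome are replaced by the immunosubunits that Psmb8, Psmb9 and Psmb10 encode, and NLRC5 is the transactivator that works at class I promoters. T cells raise surface class I as they mature in the thymus.

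Of the 10 members, 6 lie on mouse chromosome 17 in or near the MHC, and in the RefSeq annotation Psmb9, Tap1, Psmb8 and Tap2 follow each other as neighbouring protein-coding genes. Psmb9 and Tap1 are transcribed away from each other from a shared stretch of 225 bases. That stretch is shown because both genes were higher in perinate thymus, and the promoters of B2m and H2-Q4 because they hold a similar set of motifs while of the 2 only H2-Q4 was called in thymus. All come from RefSeq, build GRCm38.p6, plus strand, and for B2m and H2-Q4 they are the 250 bases before the annotated start. Coordinates are chr17:34187331-34187555 for Psmb9 and Tap1, chr2:122147437-122147686 for B2m and chr17:35379367-35379616 for H2-Q4. Capitals mark the letters of 4 motifs searched on both strands. These are GAAA and GAAA with any 2 bases between (a form of the interferon response element) and TGACG (the core of the cyclic AMP response element). The others are CCAAT and GGG, any 2 bases, TT, any 1 base and CC (the kB site).
Psmb9-Tap1: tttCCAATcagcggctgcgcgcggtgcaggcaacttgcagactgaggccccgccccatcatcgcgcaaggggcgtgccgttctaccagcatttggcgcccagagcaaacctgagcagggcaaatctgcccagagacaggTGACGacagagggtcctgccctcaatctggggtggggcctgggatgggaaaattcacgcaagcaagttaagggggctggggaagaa
B2m: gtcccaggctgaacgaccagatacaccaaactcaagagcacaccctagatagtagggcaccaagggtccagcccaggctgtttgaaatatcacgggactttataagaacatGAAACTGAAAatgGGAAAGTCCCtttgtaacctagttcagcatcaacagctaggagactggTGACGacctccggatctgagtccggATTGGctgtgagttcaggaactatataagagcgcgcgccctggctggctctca
H2-Q4: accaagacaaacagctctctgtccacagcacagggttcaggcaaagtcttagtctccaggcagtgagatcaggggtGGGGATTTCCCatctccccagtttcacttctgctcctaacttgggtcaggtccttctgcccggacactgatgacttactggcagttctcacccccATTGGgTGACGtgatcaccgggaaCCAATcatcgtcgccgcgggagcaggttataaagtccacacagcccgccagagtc
Over 250 bases upstream of the start, 8 of the 10 members had a RefSeq promoter entry (not Tap2 and Nlrc5). TGACG occurred in 4 of these 8 (B2m, Tap1, Psmb9 and H2-Q4), against 17.9% of 27025 promoters of that length, and CCAAT in 5, against 34.5%. Psmb9 and Tap1 share the same TGACG and CCAAT, which are counted for both genes. The kB letters were found in B2m and H2-Q4 (4.0% of all promoters), in H2-Q4 as 2 matches that overlap. GAAA and GAAA with any 2 bases between occurred only in B2m (3.04%), and other forms of the interferon response element were not searched. The search covers these letters and this window only, in the reference strain and not in NOD mice, whose MHC haplotype differs.

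Before the results, 2 arrays stood apart. Perinate-tagged replicate 2, labelled female, had a level of 9.79 for the Y-linked Eif2s3y, where the other 11 spleen arrays had 3.95 to 4.90, and of 8.38 for Xist, where they had 11.86 to 12.41. The thymus arrays, from males, had 9.73 to 10.04 for Eif2s3y and 5.70 to 6.30 for Xist. This replicate thus lay in the male range for Eif2s3y and between the ranges for Xist, and the cause was not tested. Adult thymus replicate 2 had the narrowest spread of values, with an interquartile range of 2.08, against 2.49 to 3.12 on the other 17 arrays, and values without these arrays are given where they change a call or move a value by much. The spread of values also moved with the groups compared: the interquartile range was 2.94 to 3.12 on perinate-tagged and 2.49 to 2.88 on adult-tagged arrays, and 3.00 to 3.06 in perinate thymus and 2.08 to 2.82 in adult thymus. The part of this spread in the results was not tested beyond a fit with it as a covariate, where 305 genes were called higher and 71 lower in perinate-tagged cells, in place of 1658 and 362. The 7 Treg and T cell markers (Foxp3, Il2ra, Ctla4, Ikzf2, Tnfrsf18, Cd4 and Cd3e) lay between 10.29 and 13.18 on every array. None of 11 myeloid and dendritic markers and none of 4 immature thymocyte markers reached the filter on low values, and genes absent by sex read 3.95 to 6.30, which gives the level of background.

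The heavy chain gene H2-Q4 was far lower in adult thymic Tregs than in any other group. H2-Q4, which encodes a heavy chain of the Qa region, had levels of 10.77, 10.70 and 10.55 in perinate thymus, against 8.48, 6.88 and 7.64 in adult thymus. The groups did not overlap, and the 3 perinate thymus arrays lay close to the tagged spleen arrays, which ran from 10.73 to 11.02 in perinate-tagged and from 10.74 to 10.93 in adult-tagged cells. The perinate minus adult thymus difference was 3.01 ± 0.34 (SE), an 8.04-fold higher intensity, with an adjusted p of 0.00132 by limma over 10650 genes. Adult thymus replicate 2, at 6.88, lay below the filter on low values (7.052), and without it the difference was 2.61 (adjusted p = 3.04e-06, limma). In a sorted population, fewer cells with a transcript and less of it per cell cannot be told apart.

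H2-Q4 has close paralogs, so that its probes may also read other heavy chains, and the heavy chains outside the 10 members were therefore looked up. Of 21 heavy chain genes listed, 10 had a probe set of their own and 6 passed the filter. H2-T10, a nonclassical heavy chain, had levels of 9.59, 9.40 and 8.73 in perinate thymus, against 7.90, 6.83 and 8.17 in adult thymus, a difference of 1.61 ± 0.36 (adjusted p = 0.0172, limma), and 1.21 without adult thymus replicate 2. H2-Q2 was higher by 0.66 ± 0.12 (adjusted p = 0.00905, limma), with 8.09 to 8.14 in perinate thymus and 7.27 to 7.59 in adult thymus. H2-T24 moved the other way, with 9.49 to 9.54 in perinate thymus and 9.86 to 10.31 in adult thymus (-0.62 ± 0.14, adjusted p = 0.0192, limma). H2-M3, which presents formylated peptides, Cd1d1 and Mr1 did not pass the test.

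The classical H2-K1 and H2-D1 genes share their probe sets with relatives and cannot be read one by one. A further 7 probe sets are annotated to several heavy chain genes, and they are described without a test because they were looked up after their values had been seen. Perinate thymus was above adult thymus without overlap on 6 of the 7. The share of all probe sets that separate in this way was not computed, in thymus or in spleen. By limma, 18.5% of all genes tested were called higher in perinate thymus. The set annotated to H2-D1, LOC547349 and H2-K1 (10444780) ran from 12.19 to 12.24 in perinate thymus and from 9.79 to 11.08 in adult thymus. The set annotated to H2-T9, H2-T22 and H2-T10 (10450694) had means of 8.74 in perinate thymus and 6.54 in adult thymus, where the lowest array, at 5.67, lay within the background range, and 6.97 without adult thymus replicate 2. For the set of H2-D1 and H2-K1 (10444780) the adult thymus mean was 10.55 with that array and 10.94 without it. Differences of the 7 means ran from 0.13 to 2.20 in thymus and from -0.20 to 0.67 between perinate-tagged and adult-tagged spleen cells, where 1 of the 7 (10450735, annotated to H2-T3 and H2-T18) did not overlap.

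**Figure D1:**
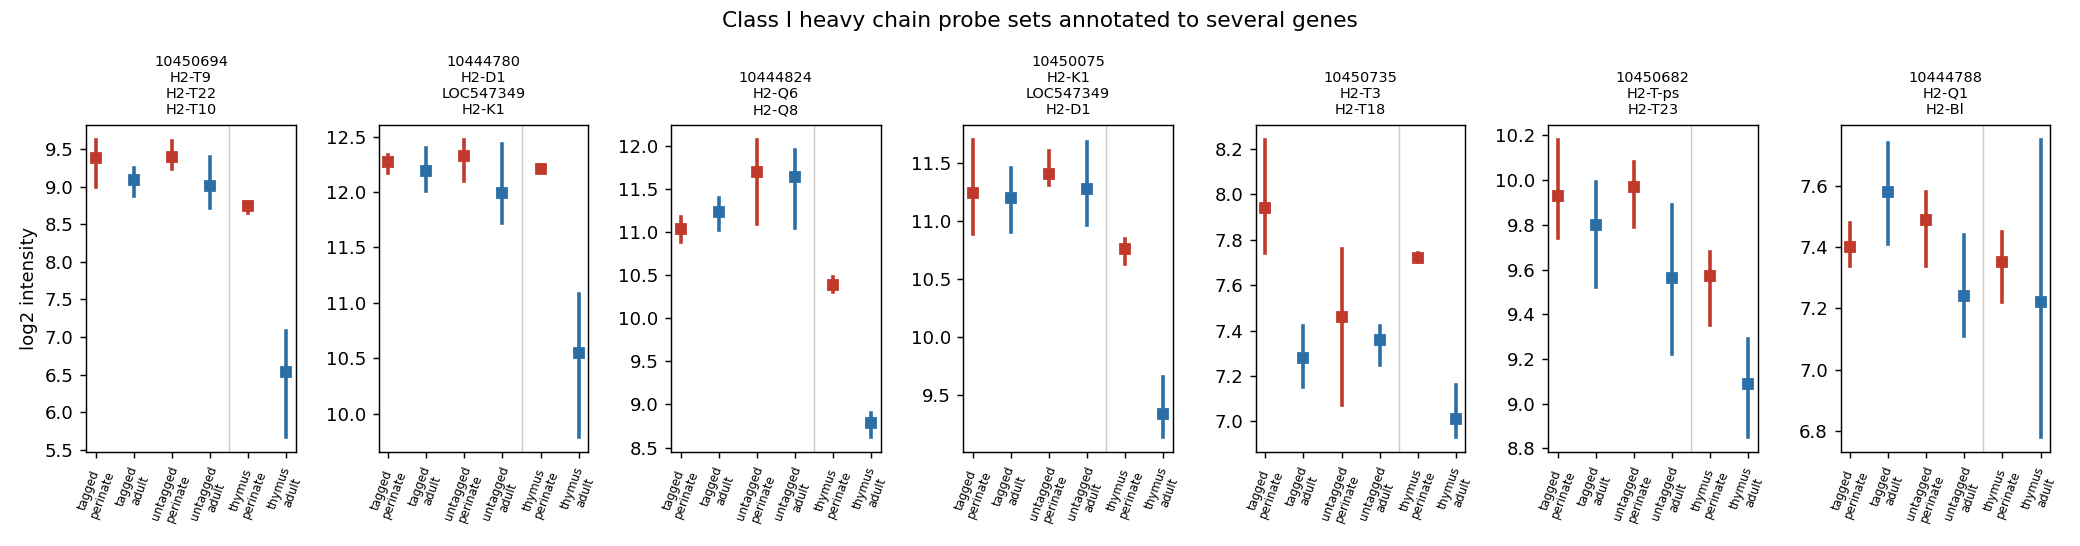
Log2 intensity of the 7 probe sets annotated to several class I heavy chain genes, with the mean (square) and the range of 3 arrays (line) for each group, perinate in red and adult in blue. On 6 of the 7 sets the adult thymus range lies wholly below the perinate thymus range, while the spleen groups mostly overlap. The share over all probe sets was not computed.

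Of the 9 members other than H2-Q4, Psmb9, Tap1 and Erap1 were higher in perinate thymus, with differences under 1. Across the 10 members, 4 were called higher and 0 lower at an adjusted p below 0.05 (H2-Q4, Psmb9, Tap1 and Erap1), where 18.5% of all genes tested were called higher and 5.84% lower. The median difference of the members was 0.50, against 0.17 over all genes tested. Under quantile normalization the split of all calls was 1211 higher and 970 lower in place of 1967 and 622, and with arrays centred on the genes tested it was 1178 and 1631, while the same 4 members passed under both.

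Psmb9, an immunosubunit, had levels of 9.84, 9.67 and 9.95 in perinate thymus, against 9.06, 8.60 and 8.87 in adult thymus. Its groups did not overlap, and the difference of 0.98 ± 0.15 (adjusted p = 0.00441, limma) stayed past the threshold without adult thymus replicate 2 (0.86). Tap1, 1 of the 2 chains of the peptide transporter, had 10.75, 10.62 and 10.64 in perinate thymus, against 10.14, 9.38 and 10.07 in adult thymus. Perinate arrays were all above adult arrays, and Tap1 was higher by 0.81 ± 0.20 (adjusted p = 0.0257, limma) and by 0.56 without adult thymus replicate 2. Erap1, the peptide-trimming aminopeptidase, had 9.32, 9.18 and 9.38 in perinate thymus, against 8.87, 8.41 and 8.68 in adult thymus. It too was separated, with a difference of 0.64 ± 0.14 (adjusted p = 0.0183, limma), and 0.52 without adult thymus replicate 2. With any 1 array left out other than adult thymus replicates 1 and 2, Tap1 lost its call, with adjusted p between 0.0535 and 0.108, and so did Erap1, between 0.0598 and 0.086. With the interquartile range as a covariate the Tap1 difference was 0.28 (adjusted p = 0.133) and that of Erap1 0.35 (adjusted p = 0.0676, limma).

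Tapbp, the chaperone tapasin that tethers heavy chains to the transporter, had 11.07, 11.04 and 11.04 in perinate thymus, against 10.81, 9.86 and 10.55 in adult thymus. All 3 perinate arrays were above the adult ones, yet the adjusted p was 0.0673 (difference 0.64 ± 0.22, limma). Psmb8, the immunosubunit with chymotrypsin-like activity, had 9.51, 9.52 and 9.74 in perinate thymus, against 9.20, 9.35 and 9.14 in adult thymus. Those groups were separate as well (0.36 ± 0.12, adjusted p = 0.0631, limma). Without adult thymus replicate 2, both passed, Tapbp at 0.37 (adjusted p = 0.0181) and Psmb8 at 0.42 (adjusted p = 0.00944), while with the interquartile range as a covariate Tapbp was at 0.02 (adjusted p = 0.91, limma).

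The other members did not pass in thymus. Psmb10, the third immunosubunit, had 10.39, 10.67 and 10.81 in perinate thymus, against 11.01, 9.27 and 11.03 in adult thymus. Adult thymus replicate 2 lay below and the other 2 adult arrays above every perinate array, so that the difference was 0.19 ± 0.43 (adjusted p = 0.749) with it and -0.40 (adjusted p = 0.026, limma) without it. B2m, the light chain of every class I molecule, differed by -0.08 ± 0.12, Tap2, the other chain of the transporter, by 0.23 ± 0.14, and Nlrc5 by -0.15 ± 0.12, with overlapping groups for each. B2m had 13.05 to 13.25 in perinate thymus and 13.17 to 13.33 in adult thymus, the narrowest span of the 10 members in thymus.

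**Figure D2:**
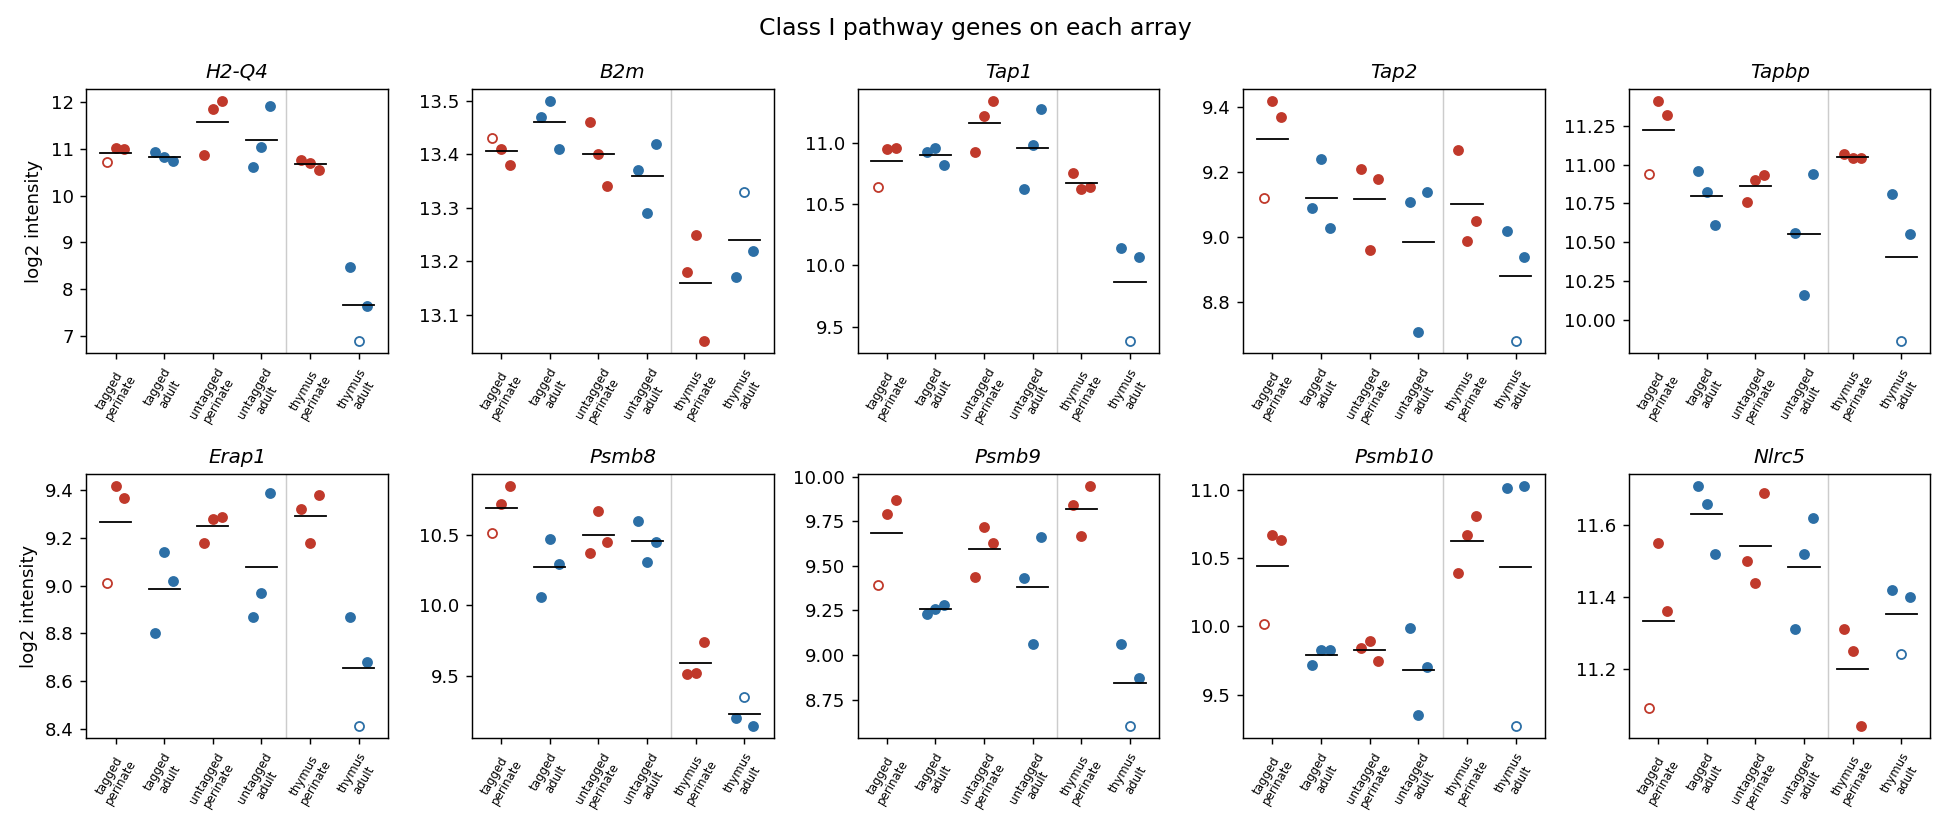
Log2 intensity of the 10 genes (1 panel each, own scale) on every array, perinate in red and adult in blue, with the group mean as a bar. Open circles are perinate-tagged replicate 2 and adult thymus replicate 2. Adult thymus is lowest for H2-Q4, at 6.88 to 8.48, and Psmb8 lies lower in both thymus groups than in spleen.

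The wider pathway in thymus was described from lists, and of all genes tested 18.5% were called higher and 5.84% lower. Among 11 other loading and peptide-supply genes tested, 3 were called higher and 0 lower: Lap3, a cytosolic aminopeptidase (0.84 ± 0.14), Calr (0.82 ± 0.24) and Canx (0.52 ± 0.11), the calreticulin and calnexin chaperones, with Calr at 0.51 without adult thymus replicate 2. The list's median was 0.17, equal to that of all genes. Of 16 regulators, Nfyb, a subunit of the CCAAT-binding factor, was higher (0.81 ± 0.19) and Ifngr1, an interferon gamma receptor chain, was lower (-0.44 ± 0.11). The list of 14 constitutive proteasome core genes had 3 higher and 0 lower, with a median of 0.49. Irf1, which drives class I genes after interferon, differed by -0.09 ± 0.11 and Rfx5, a subunit of the complex that NLRC5 joins, by 0.43 ± 0.19, and neither passed. Of 27 interferon response genes, 0 were called higher and 4 lower in perinate thymus (Rsad2, Oas1a, Ifit1 and Bst2, between -1.03 and -0.36), and without adult thymus replicate 2 there were 2 higher and 7 lower. A count over all genes without that array is not given here. Of 7 interferon gamma GTPases, 0 were higher and 3 lower.

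Among markers of other cells, Cd8a was called lower in perinate thymus. Cd8a, a CD8 chain carried by CD8+ and by double-positive thymocytes, had 9.71 to 9.81 in perinate thymus and 10.33 to 10.40 in adult thymus (-0.61 ± 0.11, adjusted p = 0.00735, limma), against 6.41 to 6.94 in spleen. Of the 5 CD8 and natural killer markers, 3 passed the filter, and the list mean was 7.16 to 7.23 in perinate thymus and 7.44 to 7.55 in adult thymus. The list means were also lower in perinate than in adult thymus for 11 myeloid and dendritic markers (5.87 to 5.94 and 6.05 to 6.45) and 6 epithelial and stromal markers (6.85 to 6.99 and 7.03 to 7.31). The same held for 4 immature thymocyte markers (5.48 to 5.68 and 5.71 to 6.12) and 4 B cell markers (6.26 to 6.48 and 6.61 to 6.76). None of the myeloid, dendritic or immature thymocyte markers passed the filter, and background ran from 3.95 to 6.30. The 1 B cell marker that passed the filter was higher in perinate thymus, by 0.25, and was not called. Xist, absent in males, read 5.70 to 5.96 in perinate thymus and 6.07 to 6.30 in adult thymus, a shift in the same direction as these means. The part of other cells in the class I differences was not tested.

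In spleen, the largest differences between perinate-tagged and adult-tagged cells were those of the 3 immunosubunits and Tapbp, and the 1 that passed the test was that of Psmb10. Of the 10 members, 1 was called higher (Psmb10) and 0 lower, while 16% of all genes tested were called higher and 3.5% lower, so the count is no larger than the background. The median difference of the members was 0.23, against 0.12 over all genes. All calls split into 1658 higher and 362 lower here, into 1118 and 726 after quantile normalization, and into 913 and 1368 with arrays centred on the genes tested. The median of all genes was 0.116, and it was -0.016 and -0.095 under those 2 scalings. Under each, the call of Psmb10 was lost (adjusted p = 0.0665 and 0.0748, limma) and Nlrc5 was called lower (-0.42 and -0.51).

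Psmb10 had levels of 10.02, 10.67 and 10.63 in perinate-tagged cells, against 9.72, 9.83 and 9.83 in adult-tagged cells. The groups did not overlap, and replicate 2 was the lowest of the perinate-tagged arrays. The difference was 0.65 ± 0.18 (adjusted p = 0.0212, limma), a 1.56-fold higher intensity, and 0.85 (adjusted p = 0.00309) without replicate 2. Leaving out either other perinate-tagged array or adult-tagged replicate 1 or 3 ended the call, with adjusted p between 0.0582 and 0.105. With the interquartile range as a covariate the Psmb10 difference was 0.42 (adjusted p = 0.411, limma), and it passed in 10 of 19 alternatives.

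Psmb8 had 10.51, 10.72 and 10.85 in perinate-tagged cells, against 10.06, 10.47 and 10.29 in adult-tagged cells. Its groups were separate by a narrow margin, with a difference of 0.42 ± 0.14 (adjusted p = 0.0529, limma). Psmb9 had 9.39, 9.79 and 9.87 in perinate-tagged cells, against 9.23, 9.26 and 9.28 in adult-tagged cells. Its groups were separate too (0.43 ± 0.16, adjusted p = 0.0765, limma). Without replicate 2 both passed, Psmb8 at 0.51 (adjusted p = 0.0362) and Psmb9 at 0.57 (adjusted p = 0.0281, limma). Over 19 alternatives Psmb8 passed in 7 and Psmb9 in 3. With the interquartile range as a covariate Psmb8 was at 0.19 (adjusted p = 0.632) and Psmb9 at 0.09 (adjusted p = 0.863, limma).

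Among the loading genes, Tapbp had 10.94, 11.41 and 11.32 in perinate-tagged cells, against 10.96, 10.82 and 10.61 in adult-tagged cells (0.42 ± 0.18, adjusted p = 0.11, limma). With the interquartile range as a covariate Tapbp was at 0.05 (adjusted p = 0.942, limma). In perinate-tagged cells, replicate 2 lay inside the adult-tagged range and the other 2 arrays above it. Erap1 showed the same arrangement, with 9.01, 9.42 and 9.37 in perinate-tagged cells, against 8.80, 9.14 and 9.02 in adult-tagged cells (0.28 ± 0.16, adjusted p = 0.212, limma). Tap2 differed by 0.19 ± 0.14, H2-Q4 by 0.09 ± 0.30, Tap1 by -0.05 ± 0.17 and B2m by -0.05 ± 0.10, and each overlapped between the groups. The 95% interval for Tap1 ran from -0.40 to 0.30 in spleen and from 0.34 to 1.27 in thymus. The test of its spleen difference minus its thymus difference did not pass (-0.86 ± 0.27, adjusted p = 0.0609, limma).

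**Figure D3:**
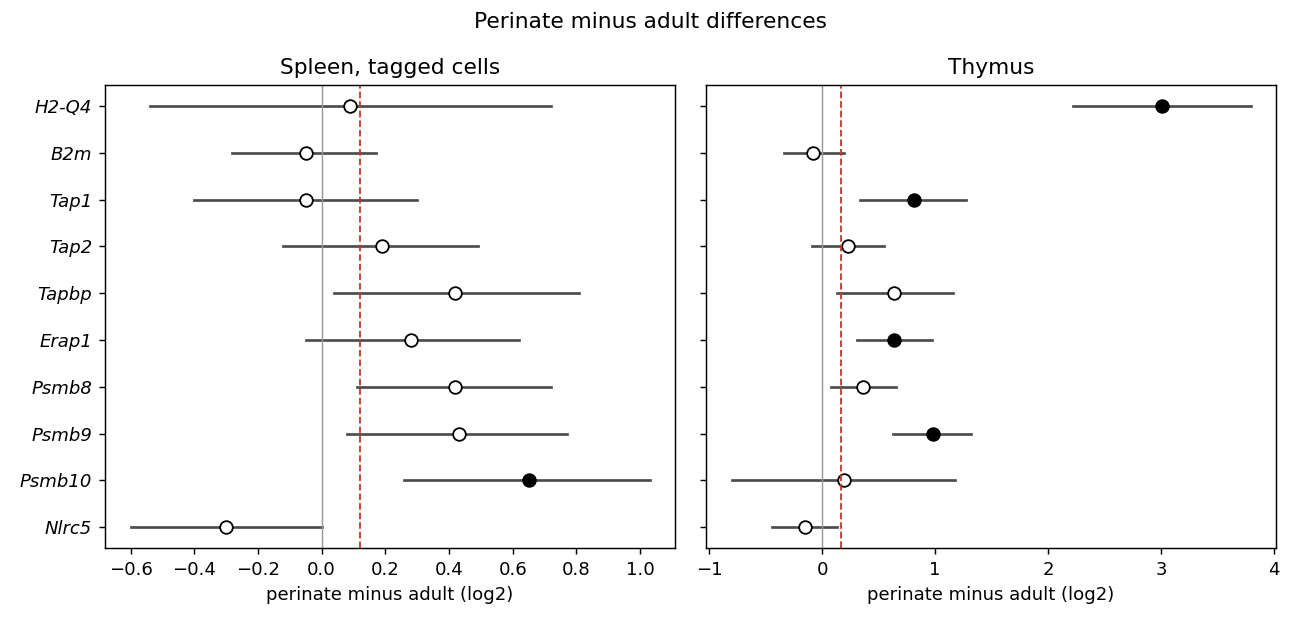
Perinate minus adult differences (log2) of the 10 genes in tagged spleen cells (left) and thymus (right), with 95% intervals from limma. Filled points passed an adjusted p of 0.05 and the dashed red line is the median of all genes tested (0.12 and 0.17). Psmb10 is the filled point on the left, and H2-Q4 at 3.01 is the farthest right in thymus, on a wider axis.

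Nlrc5 had a negative difference in spleen that did not pass the test, and its size depended on 1 array. The chosen probe set read 11.09, 11.55 and 11.36 in perinate-tagged cells, against 11.71, 11.66 and 11.52 in adult-tagged cells (-0.30 ± 0.14, adjusted p = 0.139, limma). Over all 19 probe sets of the gene the perinate-tagged mean was lower on 16 and higher on 3, with a median difference of -0.14 and a range of -0.47 to 0.11. Replicate 2 lay below all 3 adult-tagged arrays on all 19 probe sets. The mean of replicates 4 and 5 was above that of the adult-tagged arrays on 13 of the 19, with a median of 0.09, while the chosen probe set stayed negative without replicate 2 (-0.18, adjusted p = 0.396, limma).

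The interferon response list set the same array apart. Its mean over 27 genes was 8.46 on perinate-tagged replicate 2, 10.30 on replicate 4 and 10.23 on replicate 5, against 8.64 to 8.89 in adult-tagged cells. Of these 27 genes, 9 were called higher and 0 lower in perinate-tagged cells, among them Mx1 (2.21 ± 0.62), an antiviral GTPase, and Rsad2 (1.70 ± 0.55), the antiviral enzyme viperin. Of all genes tested, 16% were called higher and 3.5% lower. Without replicate 2, 24 of the 27 were called higher, Mx1 at 3.28 and Rsad2 at 2.70, and with quantile normalization 2 were. The mean of the 10 members ran in the same order on these arrays, 10.49, 10.83 and 10.81 in perinate-tagged cells, against 10.46 to 10.57 in adult-tagged cells. Whether the interferon response takes part in the class I levels was not tested. Cd79b, a B cell receptor chain and the 1 of 4 B cell markers that passed the filter, was also higher in perinate-tagged cells (0.66 ± 0.14, adjusted p = 0.00476, limma), while the list mean was 6.52 to 6.81 in perinate-tagged and 6.47 to 6.53 in adult-tagged cells, and its part was not tested.

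**Figure D4:**
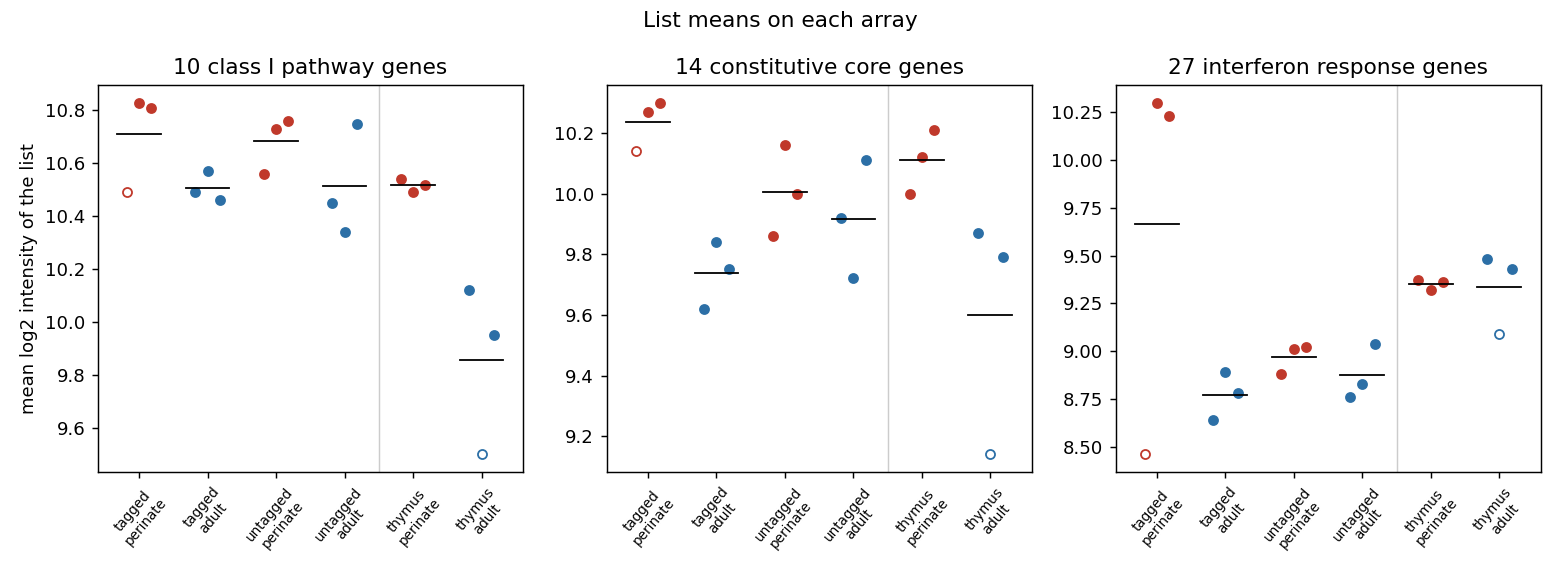
Mean log2 intensity on each array of the 10 class I pathway genes, 14 constitutive proteasome core genes and 27 interferon response genes, perinate in red and adult in blue, with the group mean as a bar and the 2 arrays that stood apart as open circles. Perinate-tagged replicate 2 is within the adult-tagged range for the class I genes (10.49), above it for the core genes (10.14) and below it for the interferon genes (8.46).

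Most genes of the constitutive proteasome core were higher in perinate-tagged cells, though the count depended on the scaling. The shares over all genes tested were 16% higher and 3.5% lower. Of 14 core genes, 10 were called higher and 0 lower, with a median difference of 0.55, and perinate-tagged replicate 2, at a list mean of 10.14, lay above the adult-tagged arrays, at 9.62 to 9.84. The count was 6 without replicate 2, 5 with quantile normalization (median 0.37), 5 with centring on the genes tested (0.34) and 0 with the interquartile range as a covariate (median 0.31). Pomp, the chaperone that assembles proteasomes, was higher by 0.70 ± 0.15 (adjusted p = 0.00528, limma), and so were Pdia3, a disulfide isomerase of the loading complex (0.44 ± 0.12), and Sec61a1, a channel of the endoplasmic reticulum (0.43 ± 0.13). These were the 3 calls among 11 other loading and supply genes, and Sec61a1 lost its call without replicate 2 (adjusted p = 0.107, limma). Of 16 regulators, Nfyb was the 1 called higher (0.57 ± 0.16) and 0 were lower, with Irf1 at 0.20 ± 0.13 and Rfx5 at 0.05 ± 0.13, neither past the threshold. None of the 6 heavy chain genes tested passed, while without replicate 2 H2-T24 did (1.19 ± 0.29, adjusted p = 0.0127, limma), as it also did against untagged cells (1.65 ± 0.29, adjusted p = 0.00378).

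Each immunosubunit was set against the constitutive subunit whose place it takes in the particle, as the difference of their log2 intensities on the same array. The level of 1 gene against another has no meaning on an array, but its change between groups shows unequal change. Between perinate-tagged and adult-tagged cells these differences changed by 0.00 for Psmb8 against Psmb5, -0.02 for Psmb9 against Psmb6 and 0.06 for Psmb10 against Psmb7 (exact permutation p = 1, 0.9 and 0.8, two-sided, n = 3 each). Without perinate-tagged replicate 2 they were 0.07, 0.12 and 0.24, and Psmb10 minus Psmb7 was then 1.04 and 1.07 in perinate-tagged cells and 0.77 to 0.91 in adult-tagged cells, without overlap (exact permutation p = 0.2, the smallest that 2 arrays against 3 allow). Psmb5 itself was higher by 0.42 ± 0.14 (adjusted p = 0.0486) and Psmb7 by 0.59 ± 0.13 (adjusted p = 0.00663, limma), with Psmb6 at 0.44 ± 0.15 (adjusted p = 0.0552). Psmb5 lost its call without replicate 2 (0.45, adjusted p = 0.0694, limma).

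In thymus, Psmb9 minus Psmb6 was 0.75, 0.44 and 0.66 on perinate arrays, against 0.15, -0.08 and -0.31 on adult arrays. Groups were separate, and the difference of 0.70 gave an exact permutation p of 0.1, the smallest that 3 arrays against 3 allow (adjusted p = 0.4 over 12 such tests). Psmb8 against Psmb5 differed by -0.40 and Psmb10 against Psmb7 by -0.31, both with overlap, and without adult thymus replicate 2 these became 0.15 and -0.69. Between spleen and thymus, Psmb8 minus Psmb5 was -0.81 ± 0.19 on the 12 spleen arrays and -1.49 ± 0.64 on the 6 thymus arrays (SD), a difference of 0.68 (exact permutation p = 0.00582, adjusted p = 0.0698), and none of the 12 comparisons passed after adjustment. That rested on adult thymus replicate 2, the 1 thymus array above the spleen range. Without it and perinate-tagged replicate 2, Psmb8 minus Psmb5 was -1.10 to -0.56 on 11 spleen arrays and -1.95 to -1.54 on 5 thymus arrays. That is a difference of 0.96 (exact permutation p = 0.000458, adjusted p = 0.0055 over the 12 tests). Both permutation tests of spleen against thymus treat arrays of groups that differ in tag, tamoxifen window or age as exchangeable. The 2 arrays were left out after their values had been seen.

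**Figure D5:**
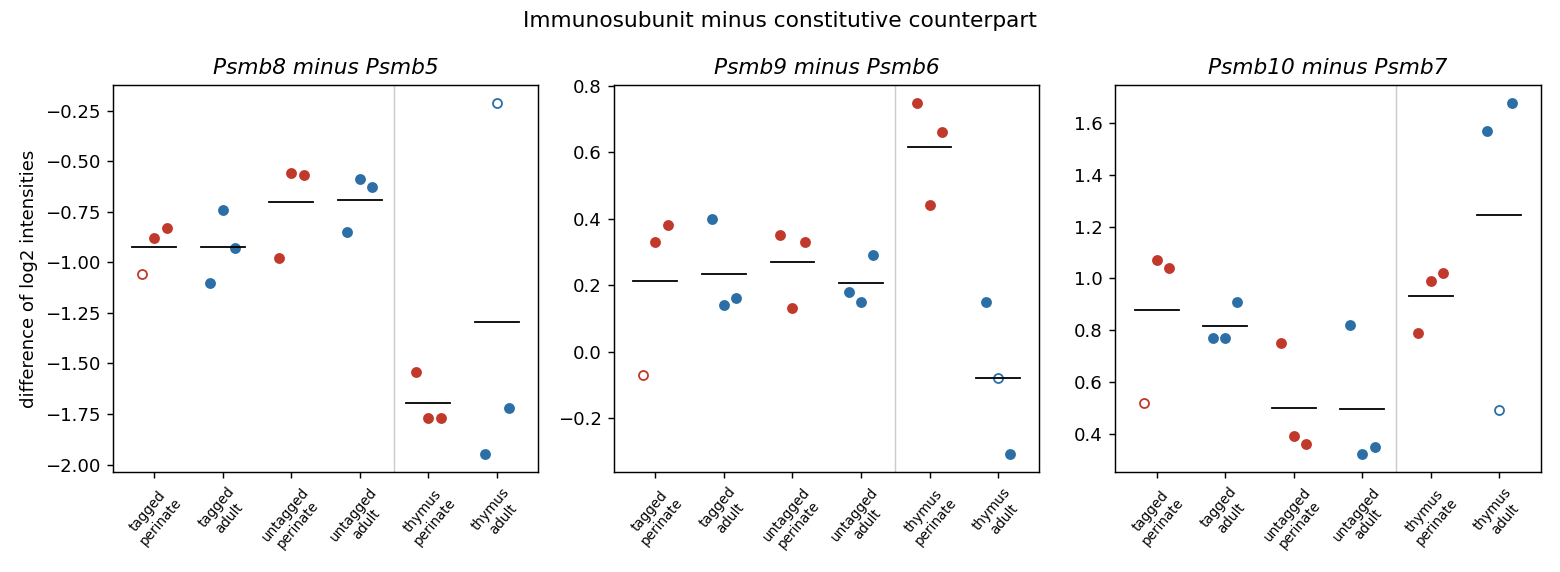
Log2 intensity of each immunosubunit minus that of its constitutive counterpart on every array, perinate in red and adult in blue, with the group mean as a bar and the 2 arrays that stood apart as open circles. Perinate-tagged and adult-tagged means differ by at most 0.06 in all 3 panels with replicate 2 (open) and by up to 0.24 without it, and perinate thymus lies above adult thymus for Psmb9 minus Psmb6 (0.44 to 0.75 and -0.31 to 0.15).

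The untagged cells show how the 2 tamoxifen schedules compared outside the tag. Between perinate-treated and adult-treated untagged cells 0 of the 10 members were called in either direction by limma, as for all genes (0% higher and 0% lower), and 0 of the 10 had an unadjusted p under 0.05. Members' differences ran from 0.04 to 0.39. H2-Q4 had 10.88, 11.85 and 12.03 in perinate-treated untagged cells, against 10.62, 11.04 and 11.93 in adult-treated untagged cells. Replicate 3 was the lowest and replicate 5 the highest in both groups, and the spread within a group was wider than in the tagged cells. With the replicate number as a block on the untagged arrays alone, 0 members were called, while 37 genes were called higher and 12 lower.

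For no member was the tagged difference called different from the untagged one: 0 of the 10 passed (0 at an unadjusted p under 0.05), where 4.29% of all genes were called higher and 0.599% lower by limma. The largest was Psmb10 at 0.50 ± 0.25 (adjusted p = 0.304). Against the untagged cells of the same treatment, perinate-tagged cells had 0 members called, where 5.49% of genes were higher and 1.86% lower, and 2 members had an unadjusted p under 0.05. One was Psmb10, whose 10.02, 10.67 and 10.63 in perinate-tagged cells all lay above 9.84, 9.89 and 9.75 in untagged cells (0.61 ± 0.18, adjusted p = 0.0505, and 0.82 with adjusted p = 0.00891 without replicate 2, limma). The other was H2-Q4, at -0.67 ± 0.30 (adjusted p = 0.195, limma), with overlapping groups. It passed in only 3 of 19 alternatives. These were -1.02 (adjusted p = 0.0252, limma) without untagged replicate 3, -0.79 (adjusted p = 0.0161) with the replicate number as a block and -0.90 (adjusted p = 0.000614) with array weights. Over all 19 the H2-Q4 difference ran from -1.02 to -0.45, with adjusted p up to 0.547 (limma). Psmb10 passed in 5 of the 19, at 0.50 to 0.82 over all of them. Of 11 other loading and supply genes, 3 were called higher in perinate-tagged than in untagged cells and 0 lower: Psme2, a subunit of the proteasome activator that interferon induces (0.65 ± 0.13), Pomp (0.54 ± 0.15) and Pdia3 (0.50 ± 0.12). Without replicate 2 only Psme2 of these passed (0.70, adjusted p = 0.013, limma). Adult-tagged against untagged cells gave 0 calls among members and 0 at an unadjusted p under 0.05 (0% of all genes higher, 0.271% lower, limma).

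H2-Q4 was the 1 member whose perinate minus adult difference itself differed between tagged spleen cells and thymus. The spleen difference minus the thymus difference was -2.92 ± 0.48 (adjusted p = 0.00089, limma over 10889 genes), and it was called lower in each of the 24 alternatives computed, at -3.38 to -2.43. In this comparison 3.89% of all genes were called higher and 2.56% lower. Tap1 stood at -0.86 ± 0.27 (adjusted p = 0.0609), and Psmb9 at -0.55 ± 0.23 (adjusted p = 0.163). Outside the members, H2-Q2 differed likewise (-0.84 ± 0.19, adjusted p = 0.0122, limma), and without perinate-tagged replicate 2 H2-T24 differed the other way (1.81 ± 0.36, adjusted p = 0.00494).

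Averaged over their groups, spleen Tregs had higher levels of H2-Q4, Psmb8, Tap1, B2m and Nlrc5 than thymic Tregs, and a lower level of Psmb10. Of the 10 members, 5 were called higher in spleen and 1 lower, against 15.1% and 16.8% of all genes, with a median of 0.19 against -0.02 over all genes. Psmb8 had group means of 10.27 to 10.69 in spleen and of 9.23 to 9.59 in thymus, and no thymus array reached any spleen array (1.07 ± 0.08, adjusted p = 2.3e-08, limma). H2-Q4 (1.96 ± 0.21) and Tap1 (0.70 ± 0.11, adjusted p = 0.000145) were higher in spleen on average, but their perinate thymus arrays, at 10.55 to 10.77 and 10.62 to 10.75, lay near the spleen range, which for these genes ran from 10.62 to 12.03 and from 10.62 to 11.34. B2m (0.21 ± 0.06, adjusted p = 0.015) and Nlrc5 (0.22 ± 0.08, adjusted p = 0.0471) were higher by small amounts, and Nlrc5 lost its call in 17 of 28 alternatives. Psmb10 was lower in spleen (-0.59 ± 0.20, adjusted p = 0.0267, limma), by -0.89 without adult thymus replicate 2 (adjusted p = 9.47e-06), and without perinate thymus replicate 3 it, B2m and Nlrc5 all lost their calls. Of 6 other heavy chain genes, 4 were called higher in spleen, led by H2-T10 (1.62) and H2-M3 (0.80), and H2-T24 was called lower (-0.61). Of 11 loading and supply genes, 4 were higher, led by Tapbpl, a tapasin relative that edits peptides (0.64), and 0 lower. The 16 regulators were mixed, with 4 higher, among them Jak2 (0.53), a kinase of interferon gamma signalling, and 3 lower, among them Socs1 (-0.53), an inhibitor of that signalling.

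Ordered by group means, the members did not share a pattern across the 6 groups. H2-Q4 and Tap1 were highest in perinate-treated untagged cells (means of 11.59 and 11.16) and lowest in adult thymus (7.67 and 9.87), and for both the step between the lowest group and the next was the only step between neighbours without overlapping arrays. Psmb9, Psmb10 and Erap1 were highest in perinate thymus (9.82, 10.62 and 9.30), Psmb8, Tap2 and Tapbp in perinate-tagged cells (10.69, 9.31 and 11.22), and B2m and Nlrc5 in adult-tagged cells (13.46 and 11.63). The place of Psmb10 rested on adult thymus replicate 2 (9.27), since the other 2 adult thymus arrays, at 11.01 and 11.03, lay above every perinate thymus array. For B2m, Tap2, Nlrc5, Psmb10 and Erap1 every pair of neighbours in the order overlapped. Group means spanned 3.92 for H2-Q4 (15.1-fold), 1.46 for Psmb8 and 1.29 for Tap1, and 0.30 for B2m (1.23-fold).

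Over the 12 spleen arrays, which differ in their spread of values, each member was compared with the mean of the other 9 as a description. Psmb9 (Pearson r = 0.90), Erap1 (0.87) and Tapbp (0.76) followed the others most closely, Tap2 (0.61), Psmb8 (0.56), Tap1 (0.51), Psmb10 (0.45) and H2-Q4 (0.35) less, and B2m (0.01) and Nlrc5 (0.07) hardly. By Spearman rank correlation Psmb10 stood at 0.10, near B2m (0.01) and Nlrc5 (0.13), and H2-Q4 at 0.52. Among 10340 other genes, those most like the mean of the members over these 12 arrays were Adar (r = 0.98), an interferon-induced RNA-editing enzyme, Tcp1 (0.97), a chaperonin subunit, Kctd20 (0.96), Nt5c3 (0.95), Otud5 (0.95) and Hnrnpa0 (0.95). Over all 18 arrays the same correlations were 0.62 to 0.87.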

How the data were processed

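RNA was extracted with TriZol and biotin-labelled with an Affymetrix WT Terminal Labeling kit, per the labels. The deposited values are linear probe set intensities (6.81 to 18850) that the authors summarised by RMA (the submitters' processing notes name Affymetrix Power Tools); versions, genome build and the arrays normalized together are not given in the sources used here. Values were log2 transformed without pseudocount. Of 24922 probe sets, 21425 have 1 gene symbol, 1399 several and 2098 none. A gene entered a fit when a group mean reached the median of all values (7.052), leaving 10350 genes for spleen (12 arrays), 10650 for thymus (6 arrays) and 10889 for all 18. All 10 members passed every fit.

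For contrasts of group coefficients, limma 3.58.1 (lmFit and eBayes, two-sided) was run under R 4.3.3, with Benjamini-Hochberg adjustment over all genes of a fit and a threshold of 0.05; the code was tested on simulated data. Exact permutation tests used scipy 1.17.1. In untagged arrays, the deviations of same-numbered replicates had r = 0.63, 0.14 and 0.47, each over the bound of 0.1. Untagged pairs with different numbers ran from -0.64 to 0.30, and 0.27 and 0.30 lay above the 0.14 of number 4. The pairing is therefore uncertain, and it comes from the data, not from the labels. Same-numbered thymus arrays had -0.06, 0.06 and 0.12, not all over the bound. The 10 members come from the choice of genes described here, and from each gene list up to 4 called genes with the largest differences are named, besides the constitutive subunits, Irf1 and Rfx5. Members and lists were chosen with earlier results of these data known. Array number limits the precision. The chimera arm that the series text describes was not analysed here.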

Additional observations from a re-analysis of the deposited data

Results flagged for a closer look

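The perinate minus adult difference of H2-Q4 was not the same in tagged spleen cells, which differ in tamoxifen window at 1 age, and in thymus, where age differs. It was 0.09 ± 0.30 in tagged spleen cells and 3.01 ± 0.34 in thymus, and the test of the spleen difference minus the thymus difference gave -2.92 ± 0.48 (adjusted p = 0.00089, limma, n = 3 arrays per group). Tissue, sex, age and sorter cannot be told apart in this contrast.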

How the results depend on the processing

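Over the alternatives, 0 members were called in every one for the untagged comparison, the tagged minus untagged difference, and tagged against untagged after adult tamoxifen. For perinate-tagged against adult-tagged cells the count of 1 became 2 with median centring, 2 with a trended robust prior, 6 with array weights, 4 with only the arrays compared, 0 with the replicate number as a fixed block (576 genes higher and 79 lower) and 0 with the interquartile range as a covariate (305 and 71), and 0 to 3 with 1 array left out. For perinate-tagged against untagged cells the count of 0 became 1 with a filter at the 60th percentile, 1 with the trended robust prior, 4 with array weights, 2 with the replicate number as a block, and 0 to 1 with 1 array left out. In thymus 4 became 3 with array weights, 5 with median centring, 6 with all 18 arrays, and 2 to 7 with 1 array left out (7 without adult thymus replicate 2), and Psmb10 turned to -0.40 there and to -1.07 with the interquartile range as a covariate (-0.40 to 0.48 with 1 array left out). When tagged spleen and thymus differences were compared, the count of 1 became 2 with quantile normalization, 2 with centring on the genes tested, 4 with array weights, 2 with only the arrays compared, 2 with the replicate block, 2 with the interquartile range as a covariate, 2 without both arrays that stood apart, and 1 to 2 with 1 array left out. Spleen against thymus gave 6, 9 with array weights, and 3 to 6 with 1 array left out. Where no count over all genes in the same setting is given, a count of members is not set against a background. The cause of these changes in count was not tested.

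Calls over all genes split differently with scaling in other comparisons too: tagged minus untagged difference 444 higher and 62 lower, but 412 and 140 after quantile normalization and 368 and 171 with centring on the genes tested; perinate-tagged against untagged 568 and 192, but 511 and 364, and 563 and 351; spleen against thymus 1645 and 1831, but 2044 and 1055 with median centring. In thymus, median centring gave 2206 and 309. Centring on the genes tested, the block on untagged arrays alone and leaving out both arrays, and all alternatives of the gene lists and of the subunit differences, were chosen after seeing the data. Whether same-numbered arrays share an animal or a sort is not in the labels. H2-Q4 and Psmb9 kept their thymus calls in all 17 alternatives (2.07 to 3.41 and 0.68 to 1.10), Tap1 in 12 and Erap1 in 11.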
